A study of Mus musculus with 8 samples.

Results

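Expression of the fibroblast growth factor (FGF) family was followed in mouse embryonic stem cells (ESCs), in the sorted Sertoli cell-like cells (SCLCs) derived from them, which the labels call testicular somatic cell-like cells, and in primordial germ cell-like cells derived from ESCs. The 10 genes were chosen by name, 6 ligands (Fgf2, Fgf4, Fgf5, Fgf8, Fgf15 and Fgf17) and the 4 receptors Fgfr1, Fgfr2, Fgfr3 and Fgfr4, out of 46078 gene IDs with counts. FGFs are secreted proteins that bring together receptor tyrosine kinases of the FGFR family on the cell surface, with heparan sulfate or a klotho protein as the partner of the ligand. The bound receptors pass the signal through the adaptor FRS2 to RAS and the kinases MEK and ERK, and ERK in turn switches on inhibitors such as the Sprouty proteins. In ESCs FGF4 is the known autocrine signal that prepares the cells to leave naive pluripotency, FGF5 marks the epiblast that follows, and FGF9 acts in the embryonic testis to maintain Sox9 in Sertoli cells.

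RNA-sequencing libraries of 4 groups were analysed, with 2 libraries in each group. tcESCs are a male C57BL/6 ESC line (XY;tesco-cfp) in which a testis-specific Sox9 enhancer, tesco, drives cyan fluorescent protein (CFP), and tc;Sf1ESCs are 1 clone of it that carries an overexpressed mouse Sf1 transgene (the gene Nr5a1) after selection with G418. SCLCs are CFP-positive cells sorted at day 12 from cultures of differentiating tc;Sf1ESCs (XY;tesco-cfp;Sf1), which had received CHIR99021 and TTNPB and then CHIR99021, BMP7 and FGF9. The tod-PGCLCs come from another C57BL/6 ESC line (XY;Prdm1-gfp), were made into epiblast-like cells with bFGF and activin A, aggregated with the differentiated tc;Sf1ESCs and sorted at day 6 of the organoid culture for GFP and a surface protein, which the study names as CD49f in its results and as SSEA1 in its methods. The cell line and the cell type therefore cannot be told apart for tod-PGCLCs. The ESCs were kept with LIF, CHIR99021 and the MEK inhibitor PD0325901, which acts below the FGF receptors, so the medium and the cell type cannot be told apart either. The labels number the libraries of a group 1 and 2 without saying which cultures they came from, so p-values measure only the spread between these samples, which may be technical.

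The libraries held 25411033 to 30680191 counts on genes, at which 3 counts are 0.0978 to 0.118 CPM (counts scaled to a common library total), and this floor covers counting error only. Replicates differed by more than sampling noise, and the chi-square of their counts divided by its degrees of freedom ran from 1.41 (tc;Sf1ESCs) to 27.6 (SCLCs). Nr5a1, the gene of the transgene, was counted 1 and 0 times in tcESCs, 52 and 30 in tc;Sf1ESCs, 341 and 535 in SCLCs, and 6 and 5 in tod-PGCLCs, so its order among the ESC lines and SCLCs follows the labels. Of 10 Sertoli cell markers the summed level was 823 and 794 CPM in SCLCs, 40.1 to 69.4 CPM in the 4 ESC libraries, and 185 and 215 CPM in tod-PGCLCs. In tod-PGCLCs most of it came from Dmrt1, at 94.9 and 116 CPM, and Cited2, at 70.8 and 75.8 CPM. Amh, Dhh and Sox8 were below 1 CPM in both SCLC libraries, and Wt1 (2.35 and 0.826 CPM) and Ptgds (0.235 and 1.11 CPM) in one of them. The 12 visceral endoderm markers summed to 2012 and 3541 CPM in SCLCs, 8.58 to 15.7 CPM in the ESC libraries, and 33.6 and 42.6 CPM in tod-PGCLCs. The 9 pluripotency markers summed to 918 and 641 CPM in SCLCs, 5069 to 5486 CPM in the ESCs, and 3015 and 2921 CPM in tod-PGCLCs. The 8 germ cell markers reached 995 and 998 CPM in tod-PGCLCs, against 430.5 to 582 CPM in the other groups. Most of the Sertoli cell sum in SCLCs came from Gata4, at 432 and 451 CPM, and Cited2, at 329 and 302 CPM, and Sox9 had 206 and 130 counts there. The visceral endoderm sum was led by Cubn, at 1097 and 2203 CPM, so the defining markers went only partly with the label of these cells.

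Promoter sequences were shown for the ligand with the most reads in ESCs and for the 3 receptors that rose together in SCLCs. They were taken from RefSeq on GRCm38.p6, whose table held 6 of the 10 genes; it had no entry for Fgf8, Fgf15, Fgf17 and Fgfr1. Each covers the 250 bases before the start of transcription, from 5′ to 3′ on the strand of the gene. They are at chr7:144861136-144861385 (+ strand) for Fgf4, chr7:130266809-130267058 (- strand) for Fgfr2, chr5:33721474-33721723 (+ strand) for the first of the 2 starts listed for Fgfr3, and chr13:55152568-55152817 (+ strand) for Fgfr4. Capitals mark the matches to 6 motifs searched on both strands: GGGCGG (the GC box), CCAAT (bound by NF-Y), TATATA (a run of the TATA type), TATAAA (the common form of the TATA box), TGATAA (the core site of GATA factors) and AAGGTCA (an NR5A half-site, the sequence that SF1 binds).
Fgf4: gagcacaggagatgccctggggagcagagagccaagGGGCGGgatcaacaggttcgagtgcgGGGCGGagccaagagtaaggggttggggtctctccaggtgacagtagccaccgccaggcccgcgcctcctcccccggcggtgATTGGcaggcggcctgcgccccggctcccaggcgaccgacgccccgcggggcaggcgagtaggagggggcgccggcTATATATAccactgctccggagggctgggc
Fgfr2: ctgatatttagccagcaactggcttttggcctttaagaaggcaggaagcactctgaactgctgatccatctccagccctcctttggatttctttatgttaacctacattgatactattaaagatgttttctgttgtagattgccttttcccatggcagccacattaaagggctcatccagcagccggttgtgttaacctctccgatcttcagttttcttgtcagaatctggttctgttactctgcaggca
Fgfr3: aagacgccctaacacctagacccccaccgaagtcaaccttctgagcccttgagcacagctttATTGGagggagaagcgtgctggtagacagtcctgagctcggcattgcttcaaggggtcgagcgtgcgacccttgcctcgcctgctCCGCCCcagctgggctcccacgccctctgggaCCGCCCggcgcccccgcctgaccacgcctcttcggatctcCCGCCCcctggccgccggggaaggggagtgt
Fgfr4: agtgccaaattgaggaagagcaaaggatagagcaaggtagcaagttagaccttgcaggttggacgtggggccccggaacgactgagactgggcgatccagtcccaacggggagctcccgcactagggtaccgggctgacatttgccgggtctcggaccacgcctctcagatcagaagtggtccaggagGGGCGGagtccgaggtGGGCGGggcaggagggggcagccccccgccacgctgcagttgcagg
Fgf4 had 2 GC boxes, 1 CCAAT box and 2 overlapping TATATA matches that end 23 bases before the start. At the start shown Fgfr3 had 3 GC boxes and 1 CCAAT box, Fgfr4 had 2 GC boxes, and Fgfr2 had no match to any of the 6 motifs. The second Fgfr3 start, which is not shown, had 2 overlapping GC boxes and no CCAAT box. Of 32851 promoters of this length, 32.7% held a GC box, 33.85% a CCAAT box, 5.25% TATATA, 12.4% TATAAA, 7.94% the GATA core and 4.08% the NR5A half-site. The GC content was 71.2% for Fgf4, 66.8% for the Fgfr3 start shown, 64.0% for Fgfr4 and 44.0% for Fgfr2, against a median of 52.4% over all promoters. No searched motif was held by all 3 receptors, and a match or its absence is a description of these letters only.

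**Figure D1:**
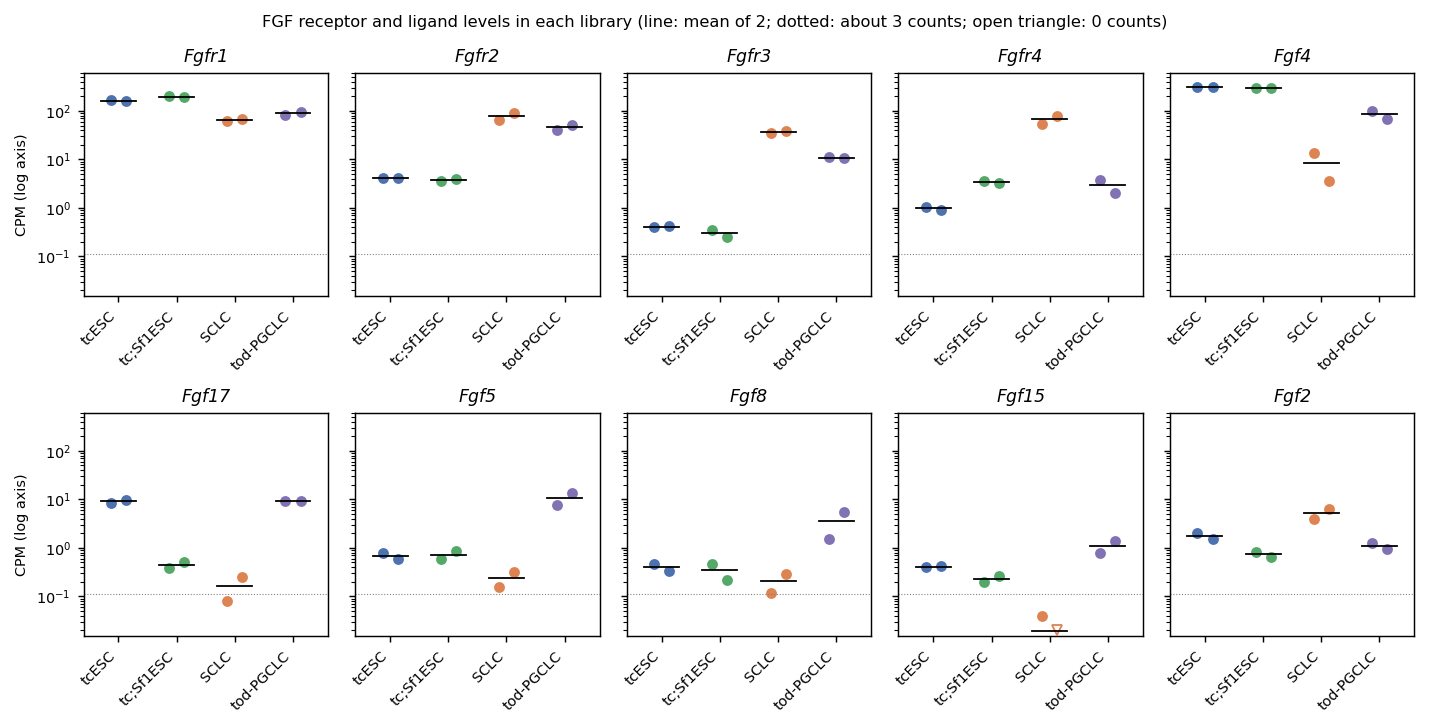
CPM of the 4 receptors and the 6 ligands in each library on a log axis, with points for libraries, a line for the mean of 2, and a dotted line at about 3 counts; an open triangle stands for 0 counts, drawn at the foot of the axis. Fgfr2, Fgfr3 and Fgfr4 sit highest in SCLCs, Fgf4 falls to 13.3 and 3.56 CPM there, and Fgf5, Fgf8 and Fgf15 sit highest in tod-PGCLCs.

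Between ESCs and SCLCs the receptor that carried most of the FGFR message changed. Fgfr1 fell, and Fgfr2, Fgfr3 and Fgfr4, which were low in ESCs, each rose, by 20.0- to 123-fold against tc;Sf1ESCs. In bulk libraries such as these, fewer cells of a type and less RNA per cell cannot be told apart. Fgfr1 (ENSMUSG00000031565 of GENCODE M21 on GRCm38, chromosome 8, 25513654 to 25575718, + strand), which encodes the broadly used receptor of the epiblast, had 4168 and 4915 counts in tcESCs, 5124 and 5395 in tc;Sf1ESCs, 1600 and 1888 in SCLCs, and 2440 and 2676 in tod-PGCLCs. This is 162 ± 3.30, 198 ± 1.22, 65.3 ± 3.60 and 90.0 ± 8.06 CPM (mean ± SD, n = 2), an order in which no neighbouring groups overlapped. Fgfr1 fell in SCLCs by 1.60 on the log2 scale against tc;Sf1ESCs (standard error 0.0642, edgeR adjusted p = 1.23e-06) and by 1.31 against tcESCs (standard error 0.0639, edgeR adjusted p = 2.70e-06). Fgfr1 was lower in tod-PGCLCs than in tcESCs by a log2 difference of -0.85 (edgeR adjusted p = 2.65e-05), which is under the 2-fold limit and was not called.

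Fgfr2 (ENSMUSG00000030849, chromosome 7, 130162451 to 133123350, - strand), whose splice forms serve epithelia and mesenchyme and cannot be told apart in gene counts, had 106 and 126 counts in tcESCs and 93 and 107 in tc;Sf1ESCs. It had 1655 and 2531 counts in SCLCs and 1180 and 1452 in tod-PGCLCs, so both derived groups stood above all 4 ESC libraries. It rose 20.7-fold in SCLCs against tc;Sf1ESCs (log2 fold change 4.37, standard error 0.188, edgeR adjusted p = 1.54e-06) and 11.2-fold in tod-PGCLCs against tcESCs (log2 fold change 3.48, standard error 0.199, edgeR adjusted p = 2.25e-06). Between tod-PGCLCs and SCLCs the log2 difference was -0.75 (edgeR adjusted p = 0.00305), under the 2-fold limit.

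Fgfr3 (ENSMUSG00000054252, chromosome 5, 33721674 to 33737068, + strand), which restrains bone growth and is used by several endodermal tissues, was close to absent in ESCs, with 10 and 13 counts in tcESCs and 9 and 7 in tc;Sf1ESCs. SCLCs had 911 and 1089 counts of it, and tod-PGCLCs had 323 and 297. The rise in SCLCs against tc;Sf1ESCs was 123-fold (log2 fold change 6.94, standard error 0.190, edgeR adjusted p = 2.94e-07), the largest log2 fold change of the 10 genes in any of the 5 comparisons. With 7 to 13 counts in the ESC libraries, Fgfr3 passed the filter of this fit only through SCLCs. In tod-PGCLCs it rose 26.3-fold against tcESCs (log2 fold change 4.72, standard error 0.188, edgeR adjusted p = 4.26e-07) and was lower than in SCLCs by a log2 difference of -1.78 (edgeR adjusted p = 3.40e-06).

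Fgfr4 (ENSMUSG00000005320, chromosome 13, 55152640 to 55168759, + strand), the receptor through which FGF15 acts in liver, had 27 and 28 counts in tcESCs, 91 and 89 in tc;Sf1ESCs, 1404 and 2233 in SCLCs, and 111 and 57 in tod-PGCLCs. It was the only receptor called between the ESC lines, 3.44-fold higher in the tc;Sf1ESC clone (standard error 0.288 of the log2 fold change 1.78, edgeR adjusted p = 0.00378), a call that was lost without tcESC replicate 2 (log2 fold change 1.66, adjusted p = 0.0536). It rose a further 20.0-fold from tc;Sf1ESCs to SCLCs (log2 fold change 4.32, standard error 0.210, edgeR adjusted p = 2.57e-06). In tod-PGCLCs it stood with tc;Sf1ESCs, whose libraries it overlapped, and 2.99-fold above tcESCs (log2 fold change 1.58, standard error 0.371, edgeR adjusted p = 0.00542), and this call too was lost without tcESC replicate 2 (log2 fold change 1.42, adjusted p = 0.0534). Of the 4 receptors Fgfr4 had the largest fitted difference between tod-PGCLCs and SCLCs, 23.0-fold lower in tod-PGCLCs (log2 fold change -4.52, standard error 0.280, edgeR adjusted p = 1.66e-06).

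Per length of message, Fgfr1 made up 95.7% ± 0.106 (SD, n = 2) of the receptor message in TPM (counts per length, scaled to the same total in each library) over the 4 receptors in tcESCs and 93.6% ± 0.158 in tc;Sf1ESCs. Its share was 17.4% ± 2.45 in SCLCs and 57.1% ± 0.935 in tod-PGCLCs. In SCLCs Fgfr4 was the most abundant receptor per length, with 49.3% ± 3.44, ahead of Fgfr2 with 19.5% ± 0.823, Fgfr1, and Fgfr3 with 13.8% ± 1.81. In counts Fgfr2 was ahead of Fgfr4 in both SCLC libraries (1655 and 2531 against 1404 and 2233). The summed level of the receptors was 121.0 and 159.9 TPM in the SCLC libraries, against 58.0 to 76.1 TPM in the other 6. With the longest transcript of each gene as its length, Fgfr4 held 33.8% ± 2.85 and Fgfr2 29.3% ± 1.66 in SCLCs, so the order stayed but the gap was smaller. The annotated span of Fgfr2 (chromosome 7, 130162451 to 133123350) begins 2856542 bases before the RefSeq start, and the union of its exons is 10328 bases against 4429 in its longest transcript. In tod-PGCLCs Fgfr1 was followed by Fgfr2 with 28.0% ± 2.74, Fgfr3 with 9.58% ± 1.03 and Fgfr4 with 5.29% ± 2.64.

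**Figure D2:**
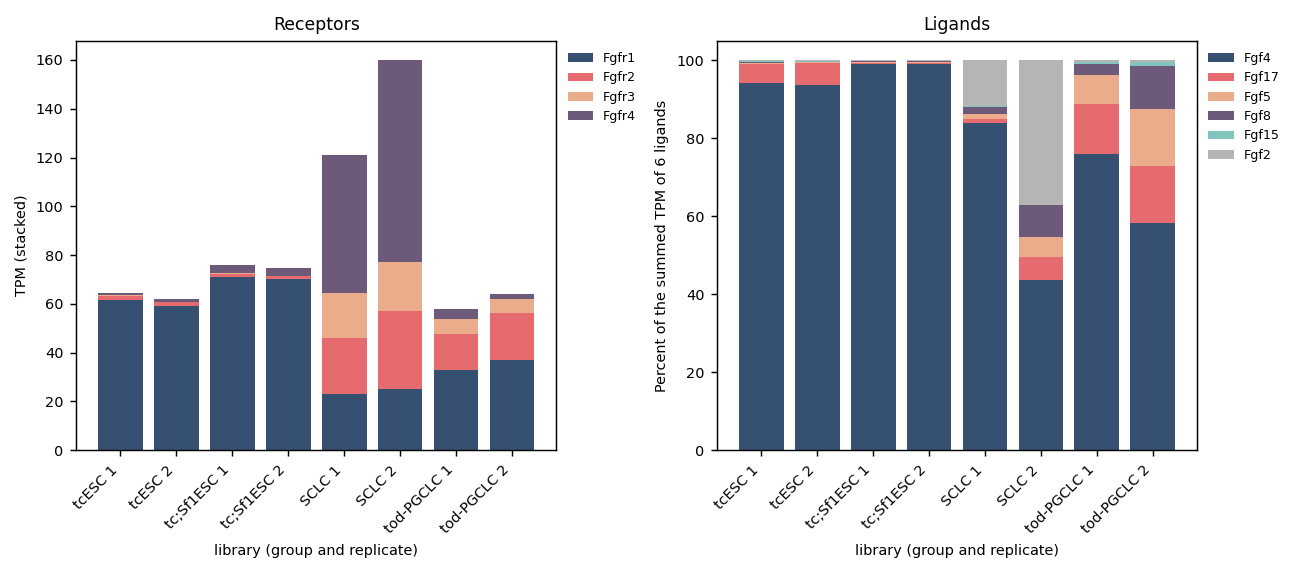
Left, stacked TPM of the 4 receptors in each library; right, the share of each ligand in the summed TPM of the 6 ligands, in percent. Fgfr1 holds nearly all of the ESC bars and 17.4% of the SCLC bars on average, and Fgf4 holds 93.9% and 98.9% of the ligand bars in the ESC groups.

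Fgf4 (ENSMUSG00000050917, chromosome 7, 144847367 to 144865243, + strand) was the ligand with the most TPM of the 6 in each library, and it fell in SCLCs. It lies 31.29 kb before Fgf15 and 2.93 kb after Fgf3. Fgf4 had 8024 and 9518 counts in tcESCs, 7571 and 8203 in tc;Sf1ESCs, 339 and 99 in SCLCs, and 2951 and 1942 in tod-PGCLCs. SCLCs had 35.5-fold less of it than their parent tc;Sf1ESCs (log2 fold change -5.15, standard error 0.458, edgeR adjusted p = 4.60e-05), and the value was -6.36 without SCLC replicate 1 and -4.48 without SCLC replicate 2. The SCLC libraries differed 3.74-fold in Fgf4, and the one with more, replicate 1, also had more of the summed pluripotency markers (918 against 641 CPM), whose ratio of replicate 1 to replicate 2 ran from 0.991 (Klf4) to 3.24 (Nanog) over the 9 genes. The part of remaining pluripotent cells in the level of Fgf4 was not tested. In tod-PGCLCs Fgf4 was 3.65-fold lower than in tcESCs (log2 fold change -1.87, standard error 0.365, edgeR adjusted p = 0.00204) and 10.3-fold higher than in SCLCs (log2 fold change 3.36, standard error 0.426, edgeR adjusted p = 0.000120), with 4.58 without SCLC replicate 1 and 2.68 without SCLC replicate 2. Between the ESC lines its log2 difference was -0.08 (edgeR adjusted p = 0.899). In tcESCs it stood at 361 ± 9.09 TPM, where the receptors summed to 63.2 ± 1.92 TPM. Of the summed TPM of the 6 ligands, which was 384 ± 7.84 in tcESCs and 18.1 and 9.30 in the SCLC libraries, Fgf4 held 84.0% and 43.7% in the SCLC libraries and Fgf2 11.8% and 37.0%. In tod-PGCLCs Fgf4 held 67.1% ± 12.6, Fgf17 13.8% ± 1.29 and Fgf8 6.77% ± 5.78, while Fgf5 held 7.37% and 14.6% in the 2 libraries, more than Fgf8 in both.

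Fgf17 (ENSMUSG00000022101, chromosome 14, 70636203 to 70642268, - strand), a ligand of the Fgf8 subfamily, had the largest fitted difference between the ESC lines of the 8 genes tested there. It had 213 and 301 counts in tcESCs, 10 and 14 in tc;Sf1ESCs, 2 and 7 in SCLCs, and 264 and 259 in tod-PGCLCs. With 2 to 14 counts in the tc;Sf1ESC and SCLC libraries, Fgf17 passed the filter of the fit without tod-PGCLCs only through tcESCs. It was 20.0-fold lower in tc;Sf1ESCs than in tcESCs (log2 fold change -4.32, standard error 0.319, edgeR adjusted p = 0.000208), and it was called in 16 of 16 alternative analyses. In SCLCs the log2 fold change was -5.72 against tcESCs (edgeR adjusted p = 9.61e-06, and -6.78 without SCLC replicate 2) and -1.40 against tc;Sf1ESCs (edgeR adjusted p = 0.0442). That last call was lost without tcESC replicate 1 (adjusted p = 0.0769) or 2 (0.0787), without tc;Sf1ESC replicate 1 (0.0638) or 2 (0.171), and without SCLC replicate 1 (0.217, log2 fold change -0.82), while without SCLC replicate 2 the log2 fold change was -2.46. The tod-PGCLC libraries overlapped those of tcESCs, with a fitted log2 difference of 0.01 (edgeR adjusted p = 0.969), and stood 53.2-fold above SCLCs (log2 fold change 5.73, standard error 0.338, edgeR adjusted p = 1.29e-06, and 6.78 without SCLC replicate 2).

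Fgf5, Fgf8 and Fgf15 were low in the ESC lines and SCLCs and highest in tod-PGCLCs. Fgf5 (ENSMUSG00000029337, chromosome 5, 98254184 to 98277030, + strand), the marker of the primed epiblast, had 20 and 18 counts in tcESCs, 15 and 23 in tc;Sf1ESCs, 4 and 9 in SCLCs, and 224 and 381 in tod-PGCLCs. It rose 15.6-fold in tod-PGCLCs against tcESCs (log2 fold change 3.96, standard error 0.377, edgeR adjusted p = 3.53e-05) and 43.1-fold against SCLCs (log2 fold change 5.43, standard error 0.441, edgeR adjusted p = 7.86e-06, and 6.04 without SCLC replicate 2). The 6 formative epiblast markers summed to 469.7 and 483 CPM in tod-PGCLCs and to 211 to 296 CPM in the other 6 libraries. The ESC lines overlapped in Fgf5, with a log2 difference of 0.06 (edgeR adjusted p = 0.925). In SCLCs its log2 fold change was -1.53 against tc;Sf1ESCs (edgeR adjusted p = 0.0222) and -1.47 against tcESCs (edgeR adjusted p = 0.0265), on few counts. The first was lost without tc;Sf1ESC replicate 2 (adjusted p = 0.124) or SCLC replicate 1 (0.0682), the second without tcESC replicate 1 (0.120) or 2 (0.0533) or SCLC replicate 1 (0.0890), and both were lost in DESeq2 (0.0772 and 0.0862). Without SCLC replicate 2 the values were -2.15 and -2.08.

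Fgf8 (ENSMUSG00000025219, chromosome 19, 45736798 to 45742915, - strand), a ligand of the primitive streak and of limb and brain organisers, had 12 and 10 counts in tcESCs, 12 and 6 in tc;Sf1ESCs, 3 and 8 in SCLCs, and 44 and 153 in tod-PGCLCs. It was 8.76-fold higher in tod-PGCLCs than in tcESCs (log2 fold change 3.13, standard error 0.663, edgeR adjusted p = 0.00316), and the log2 fold change was 1.94 without tod-PGCLC replicate 2 and 3.79 without replicate 1. Against SCLCs it was 16.6-fold higher (log2 fold change 4.05, standard error 0.741, edgeR adjusted p = 0.00110), with 2.87 and 4.71 without the same libraries and 4.83 without SCLC replicate 2. The tod-PGCLC library with 3.60 times as much Fgf8 also had more of the primitive streak markers T (2.59 times), Eomes (1.13 times) and Cdx2 (5.93 times, from 11 and 63 counts) and less of Tbx6 (0.630 times), and the other 3 of the 7 markers had 1 count each in replicate 1. The 7 markers summed to 27.2 and 47.4 CPM in tod-PGCLCs and to 35.9 and 34.1 CPM in tcESCs, where Fgf8 was low. The 12 visceral endoderm markers summed to 1.27 times as much in that library, with Afp at 0.533 times (68 and 35 counts) and Sox17 at 3.17 times (92 and 282 counts). The part of primitive streak or endoderm cells in the level of Fgf8 was not tested.

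Fgf15 (ENSMUSG00000031073, chromosome 7, 144896531 to 144900953, + strand), the mouse counterpart of human FGF19, had 10 and 13 counts in tcESCs, 5 and 7 in tc;Sf1ESCs, 1 and 0 in SCLCs, and 23 and 39 in tod-PGCLCs. It was 2.65-fold higher in tod-PGCLCs than in tcESCs (log2 fold change 1.41, standard error 0.431, edgeR adjusted p = 0.0193), but DESeq2 gave an adjusted p of 0.145, and the edgeR call was lost without tcESC replicate 1 (0.101) or 2 (0.0953). Against the single SCLC count the ratio of tod-PGCLCs was 58.1, with a 95% counting interval from 10.05 to 2331, and that of tcESCs was 21.9, from 3.55 to 900.2. Fgf8 and Fgf15 had a mean of 10 counts or less over the ESC and SCLC libraries and were not tested there with this filter, and they passed the filter of all 8 libraries only through tod-PGCLCs. With filterByExpr, with every gene that had a count, or with all 8 libraries in the fit, edgeR called Fgf15 lower in SCLCs than in tcESCs (adjusted p from 0.000364 to 0.00256) and than in tc;Sf1ESCs (adjusted p from 0.0130 to 0.0146), on 1 SCLC count, and did not call Fgf8.

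Fgf2 (ENSMUSG00000037225, chromosome 3, 37348346 to 37410108, + strand), also called basic FGF, was the one of the 6 ligands that was highest in SCLCs. It had 51 and 46 counts in tcESCs, 21 and 18 in tc;Sf1ESCs, 101 and 178 in SCLCs, and 36 and 26 in tod-PGCLCs. It rose 7.04-fold in SCLCs against tc;Sf1ESCs (log2 fold change 2.81, standard error 0.340, edgeR adjusted p = 0.000222) and 2.98-fold against tcESCs (log2 fold change 1.57, standard error 0.304, edgeR adjusted p = 0.00248). In tod-PGCLCs it was 4.75-fold lower than in SCLCs (log2 fold change -2.25, standard error 0.320, edgeR adjusted p = 0.000243), and not called against tcESCs (log2 difference -0.68, edgeR adjusted p = 0.113). It was 2.36-fold lower in tc;Sf1ESCs than in tcESCs (log2 fold change -1.24, standard error 0.364, edgeR adjusted p = 0.0381), a call lost without tcESC replicate 1 (adjusted p = 0.193) or 2 (0.0933) and without tc;Sf1ESC replicate 1 (0.122) or 2 (0.198). Its exons share 640 bases with the antisense gene Nudt6, which had 18 to 47 counts per library. The setting of strand in the counting is not given in the sources used here, so reads of both genes could be mixed.

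**Figure D3:**
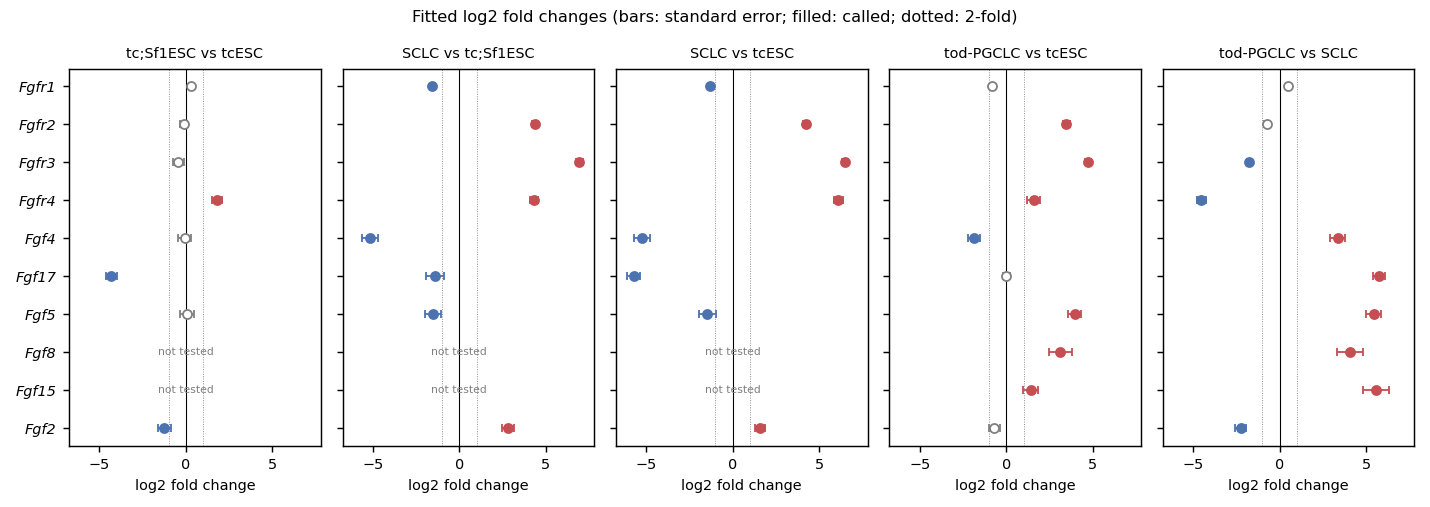
Fitted log2 fold changes of the 10 genes in the 5 comparisons, with standard errors as bars, filled points for called genes (red higher, blue lower) and dotted lines at 2-fold. The receptors move to the right in SCLCs except Fgfr1, and the ligands except Fgf2 lie to the right between tod-PGCLCs and SCLCs; the Fgf15 value in the last panel rests on 1 SCLC count and is a fitted value that depends on the prior count.

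Counted over the comparisons, 1 of the 8 genes tested between the ESC lines was higher (Fgfr4) and 2 were lower (Fgf2 and Fgf17) in tc;Sf1ESCs, against 6.04% and 5.62% of the 16481 genes of that fit. Fgf17 entered that fit, which also served the comparisons of SCLCs with the ESC lines, only through its level in tcESCs. Of the same 8 genes, SCLCs had 4 above and 4 below their level in tc;Sf1ESCs, against 24.1% (higher) and 18.1% (lower) of all genes, and 1 of the 4 above, Fgfr3, entered the fit only through its level in SCLCs. The 4 higher and 4 lower against tcESCs were the same genes, against 24.3% and 18.3% of all genes, and the 2 comparisons share the SCLC libraries. Against tcESCs tod-PGCLCs had 6 of 10 genes higher and 1 lower, and 18.1% of 16707 genes were higher and 11.2% lower. Against SCLCs they had 5 of 10 higher and 3 lower, and 18.5% of all genes were higher and 19.5% lower. The 1 of 10 genes lower in tod-PGCLCs than in tcESCs is a share near the background, and Fgf8 and Fgf15 entered both comparisons only through their level in tod-PGCLCs, so the counts of higher genes there are no support for a change of the family.

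The level of Fgfr1 in the ESC lines was set beside that of the other genes on its chromosome. Fgfr1 was 1.22-fold higher in tc;Sf1ESCs (log2 difference 0.29, standard error 0.0620, edgeR adjusted p = 0.0120), under the 2-fold limit. The 864 tested genes of chromosome 8 had a median log2 difference of 0.47 between the same lines, against 0.000959 over all genes tested, so Fgfr1 lay below the median of its own chromosome. The medians on chromosomes 3, 5, 7, 13, 14 and 19, which carry the other 9 genes, lay between -0.02 and 0.20. Between tod-PGCLCs and SCLCs the median on chromosome 8 was -0.54, while Fgfr1 stood at 0.46 (edgeR adjusted p = 0.000663). The part of the chromosome in the level of Fgfr1 was not tested, and the clone and the transgene cannot be told apart.

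The SCLC libraries differed from each other along with some of the markers of other cell types. Replicate 2 had 1.40 times as much Fgfr2, 1.46 times as much Fgfr4 and 1.61 times as much Fgf2 as replicate 1, and 1.76 times the summed level of the visceral endoderm markers. Fgfr1 and Fgfr3 differed less, with ratios of 1.08 and 1.10. The endoderm markers did not all differ in the same direction. Over the 12 genes the ratio of replicate 2 to replicate 1 ran from 0.844 (Foxa2) to 2.83 (Apob). Sox17 was also lower in replicate 2, at 0.954, and Cubn, which led the sum, had a ratio of 2.01. All 12 visceral endoderm markers were called higher in SCLCs against both ESC lines, where 24.1% (tc;Sf1ESCs) and 24.3% (tcESCs) of all genes were. Of the 12, 4 had at most 3 counts in both tcESC libraries and 5 in both tc;Sf1ESC libraries. Some of them may therefore have passed the filter only through SCLCs. Against tc;Sf1ESCs the log2 fold changes of Fgfr2, Fgfr3 and Fgfr4 were 4.61, 7.02 and 4.58 without SCLC replicate 1. They were 4.11, 6.87 and 4.02 without SCLC replicate 2. Against tcESCs they were 4.47, 6.58 and 6.36, and 3.97, 6.43 and 5.81. Each of these fits leaves 1 SCLC library, and both SCLC libraries carried the endoderm markers, so they cannot decide on endoderm cells. The part of endoderm cells in the rise of these receptors was not tested.

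Of 3 co-receptors followed, 2 passed the filter, and 1 of these was called higher in SCLCs against tc;Sf1ESCs, where 24.1% of all genes were, and both against tcESCs, where 24.3% of all genes were. Klb, which encodes β-klotho, the co-receptor of FGF15 at FGFR4, had 30 and 44 counts in tcESCs, 8 and 10 in tc;Sf1ESCs, 2176 and 3601 in SCLCs, and 17 and 14 in tod-PGCLCs. It rose 313.5-fold in SCLCs against tc;Sf1ESCs (log2 fold change 8.29, standard error 0.313, edgeR adjusted p = 9.14e-07) and 81.5-fold against tcESCs (log2 fold change 6.35, edgeR adjusted p = 1.24e-06), and it was 3.85-fold lower in tc;Sf1ESCs than in tcESCs (edgeR adjusted p = 0.0226). Like Fgfr4 it was higher in SCLC replicate 2. Fgfrl1, a receptor without a kinase domain, was 2.83-fold higher in tc;Sf1ESCs than in tcESCs (log2 fold change 1.50, edgeR adjusted p = 0.000527) and 4.74-fold higher in tod-PGCLCs than in tcESCs (log2 fold change 2.25, edgeR adjusted p = 2.67e-06). Kl, the third gene of this list, had at most 14 counts in any library and was not tested.

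Of 12 other FGF ligands 5 passed the filter in each fit. Fgf10, a mesenchymal ligand of FGFR2, was called in all 5 comparisons and had 216 and 209 counts in tcESCs, 446 and 490 in tc;Sf1ESCs, 1231 and 1790 in SCLCs, and 46 and 97 in tod-PGCLCs. It rose 2.31-fold in tc;Sf1ESCs against tcESCs (log2 fold change 1.21, edgeR adjusted p = 0.00240) and 3.20-fold in SCLCs against tc;Sf1ESCs (log2 fold change 1.68, edgeR adjusted p = 6.67e-05). Fgf1 was 25.4-fold higher in tod-PGCLCs than in tcESCs (log2 fold change 4.67, edgeR adjusted p = 7.25e-05), where tcESCs had 3 and 4 counts. Fgf13, which stays inside the cell and does not act on FGFRs in the usual way, was lower in SCLCs than in tc;Sf1ESCs (log2 fold change -2.32, edgeR adjusted p = 0.000641) and 6.86-fold higher in tod-PGCLCs than in SCLCs (log2 fold change 2.78, edgeR adjusted p = 6.87e-05). Fgf9, the ligand supplied in the SCLC medium, had 0 and 6 counts in tcESCs, 0 and 0 in tc;Sf1ESCs, 4 and 5 in SCLCs, and 3 and 0 in tod-PGCLCs, a level under the filter on low counts. Fgf3, the neighbour of Fgf4 on chromosome 7, had 121 and 102 counts in tcESCs, 233 and 252 in tc;Sf1ESCs, 371 and 388 in SCLCs and 55 and 52 in tod-PGCLCs. Fgf3 was named after its values were seen, and it was highest in SCLCs, where Fgf4 and Fgf15 were lowest.

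Some genes for the core proteins and enzymes of heparan sulfate, which FGFs bind, were called, while heparan sulfate itself was not measured. Of 10 core proteins tested, 3 were higher and 2 lower in SCLCs against tc;Sf1ESCs, near the 24.1% and 18.1% of all genes, with Gpc6 20.2-fold higher (edgeR adjusted p = 1.53e-06) and Sdc2 13.4-fold lower (edgeR adjusted p = 7.02e-06). Gpc4, a glypican of ESCs, stood at 155 ± 0.151 CPM in tcESCs and was 2.91-fold lower in tc;Sf1ESCs (edgeR adjusted p = 5.08e-05) and 5.82-fold lower in tod-PGCLCs (edgeR adjusted p = 1.87e-07). Gpc3, another glypican, was 8.98-fold higher in tod-PGCLCs than in tcESCs (edgeR adjusted p = 2.56e-07). Of 13 enzymes of synthesis and trimming, 5 were higher and 1 lower in SCLCs against tc;Sf1ESCs, beside the same shares of all genes, and 3 were higher in tc;Sf1ESCs against tcESCs, where 6.04% of all genes were. Hs3st1, a 3-O-sulfotransferase, had 9 and 21 counts in tcESCs, 116 and 141 in tc;Sf1ESCs, 7060 and 6238 in SCLCs and 27 and 25 in tod-PGCLCs. It rose 8.99-fold between the ESC lines (log2 fold change 3.17, edgeR adjusted p = 0.000412) and 51.9-fold from tc;Sf1ESCs to SCLCs (log2 fold change 5.70, edgeR adjusted p = 4.03e-07). Sulf1, which trims sulfate outside the cell, was the one enzyme lower in SCLCs than in tc;Sf1ESCs, 2.14-fold (edgeR adjusted p = 0.00112). Hs6st2, a 6-O-sulfotransferase, was 5.47-fold higher in tod-PGCLCs than in tcESCs (edgeR adjusted p = 0.000244).

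The genes that carry the signal inside the cell were counted next. Of 19 genes tested 0 were called between the ESC lines by edgeR and 0 by DESeq2, while 8 had an unadjusted edgeR p under 0.05, and 6.04% of all genes were higher and 5.62% lower. In SCLCs against tc;Sf1ESCs 3 were higher and 16 were not called, against 24.1% and 18.1% of all genes, and against tcESCs 3 were higher and 1 lower (24.3% and 18.3% of all genes). In tod-PGCLCs 1 was higher and 1 lower against tcESCs (18.1% and 11.2% of all genes), and 4 were lower and 15 not called against SCLCs (19.5% of all genes were lower). The median log2 difference of the list was -0.08 between the ESC lines and 0.05 in SCLCs against tc;Sf1ESCs, and 0.00351 and -0.27 in tod-PGCLCs against tcESCs and SCLCs. Over all genes tested these medians were 0.000959, 0.02, 0.03 and 0.01. Mapk3, the gene of ERK1, was 5.08-fold higher in SCLCs than in tc;Sf1ESCs (log2 fold change 2.34, edgeR adjusted p = 2.84e-07) and 2.48-fold higher in tod-PGCLCs than in tcESCs (log2 fold change 1.31, edgeR adjusted p = 2.59e-06). The adaptor gene Shc1 was 2.03-fold lower in tod-PGCLCs than in tcESCs (edgeR adjusted p = 3.30e-06). Frs2, the adaptor that binds FGFRs, was 5.04-fold lower in tod-PGCLCs than in SCLCs (log2 fold change -2.33, edgeR adjusted p = 8.39e-08).

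The feedback inhibitors and ERK target factors are genes that ERK activity raises in many cells. Both lists held higher and lower genes in SCLCs against either ESC line, and the feedback inhibitors called in tod-PGCLCs were all higher. Of 10 feedback inhibitors tested, 1 was lower between the ESC lines, Spry4, which fell 2.62-fold in tc;Sf1ESCs (log2 fold change -1.39, edgeR adjusted p = 0.00124), where 5.62% of all genes were lower. In SCLCs against tc;Sf1ESCs 2 were higher and 3 lower, against 24.1% and 18.1% of all genes, with Dusp4 17.7-fold higher (log2 fold change 4.14, edgeR adjusted p = 5.06e-06) and Spry2 4.17-fold lower (log2 fold change -2.06, edgeR adjusted p = 5.49e-06). Against tcESCs tod-PGCLCs had 4 higher and 6 not called, and against SCLCs 6 higher and 4 not called, with median log2 differences of 0.52 and 1.08 against 0.03 and 0.01 over all genes tested, of which 18.1% and 18.5% were higher. Dusp6, which removes the phosphates of ERK, was 4.12-fold higher in tod-PGCLCs than in SCLCs (log2 fold change 2.04, edgeR adjusted p = 0.000216), and SCLC replicate 1 had 2.24-fold more of it than replicate 2. Of 8 ERK target factors tested 3 were lower and 5 not called between the ESC lines, where 5.62% of all genes were lower. DESeq2 called 2 of this list lower there. In SCLCs against tc;Sf1ESCs 3 were higher and 3 lower, against 24.1% and 18.1% of all genes. Egr1 stood at 0.820 ± 0.0112 CPM in tcESCs and 0.417 ± 0.124 CPM in tc;Sf1ESCs, and at 105 ± 11.5 CPM in SCLCs and 48.3 ± 15.7 CPM in tod-PGCLCs. It rose 251-fold in SCLCs against tc;Sf1ESCs (log2 fold change 7.97, edgeR adjusted p = 1.29e-07). Etv1, Etv4 and Etv5, factors of the ETS family, were all called lower in SCLCs, and Etv5 was 11.4-fold higher in tod-PGCLCs than in SCLCs (log2 fold change 3.51, edgeR adjusted p = 5.73e-06). SCLC replicate 1 had 2.06-fold more Etv5 than replicate 2, and like Dusp6 this went with the higher sum of pluripotency markers there. The part of remaining pluripotent cells in both was not tested. Junb, an AP-1 factor, was 5.28-fold lower in tod-PGCLCs than in SCLCs (log2 fold change -2.40, edgeR adjusted p = 1.17e-06). In tod-PGCLCs against tcESCs 3 of 9 factors tested were higher and 2 lower, against 18.1% and 11.2% of all genes. One of the 3, Egr2, had 1 to 4 counts in the ESC libraries and passed the filter only with the tod-PGCLC libraries in the fit (19 and 31 counts).

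**Figure D4:**
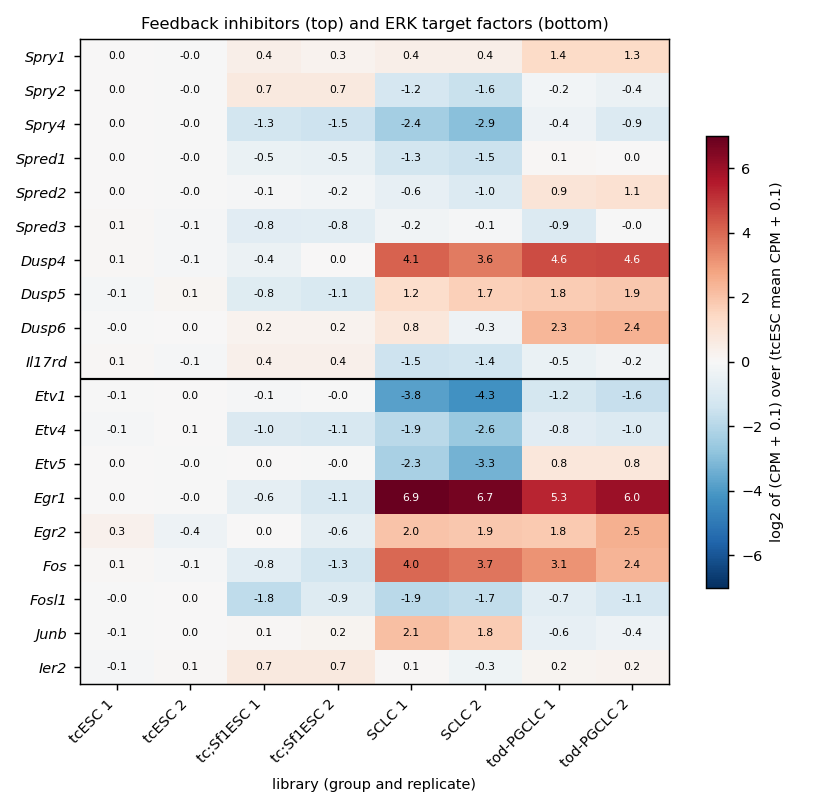
Heat map of the feedback inhibitors (above the line) and the ERK target factors (below it) in each library, as the log2 of CPM + 0.1 over the tcESC mean CPM + 0.1. Egr1, Fos and Dusp4 are high in both derived groups, and Etv1, Etv4, Etv5, Spry2 and Spry4 are low in SCLCs.

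The genes most like each of the 10 were taken over the 8 libraries, as Pearson's r of log2 CPM among the genes whose mean reached 1 CPM. The 8 points fall into 4 groups, so a high r mostly means a like order of the groups, and r is given as a description. Among the receptors these were Tyw3 (0.998) and Cyp1a1 (0.996) for Fgfr1, Inpp5f (0.998) and Mx2 (0.998) for Fgfr2, Ifih1 (0.999) and Vsir (0.998) for Fgfr3, and Ctif (0.999) and Fam198b (0.996) for Fgfr4. Among the ligands they were Tmem40 (0.999) and Tex9 (0.997) for Fgf4, Clec16a (0.995) and Boll (0.991) for Fgf17, Ppp3r1 (0.992) and Hemk1 (0.991) for Fgf5, Magel2 (0.975) and Brd1 (0.972) for Fgf8, Fign (0.994) and Eml4 (0.992) for Fgf15, and Prdm2 (0.989) and Daam1 (0.985) for Fgf2. Each of the 10 genes had a pair of its own.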

How the data were processed

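RNA was sequenced from 8 libraries, polyA-selected, strand-specific and read in 50-base pairs. The authors deposited counts per gene, for which the submitters' processing notes name Trim Galore, STAR 2.4.0, Picard, HTSeq, DESeq2 and GRCm38. Rows naming no gene held 35.6 to 41.6% of the reads and were left out. Of 46078 gene IDs, 45229 were named with GENCODE M21. The remaining 849 have no name there. Library depth was 25411033 to 30680191 counts.

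Genes with a mean count above 10 were tested with edgeR 4.0.16 (TMM, quasi-likelihood test, Benjamini-Hochberg adjustment over all genes, two-sided). A call needed a fold change above 2 and an adjusted p under 0.05. One fit on 6 libraries (16481 genes) served the comparisons without tod-PGCLCs and another on all 8 (16707 genes) those with them. TPM used the union of exons. Log2 CPM used a prior count of 2. The scripts were tested on simulated data.

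The genes and lists were chosen with earlier results of these data known. Named were all 10 genes, Fgf9, the largest called change of each pathway list in each direction (mean of at least 1 CPM), some further genes of these lists chosen after their values were seen, and the 2 genes most like each of the 10. One result that this rule would name is not reported here. The settings varied were the scaling (RLE size factors or library totals), filterByExpr, no filter on low counts, only the 4 libraries compared, all 8 libraries, DESeq2 1.42.0, an adjusted p under 0.01, a test against a 2-fold change, a replicate block, the longest transcript as length, and leaving out each library.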

Additional observations from a re-analysis of the deposited data

How the results depend on the processing

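Of 720 log2 fold changes of the 10 genes recomputed under an alternative, 676 kept their direction and their side of the threshold, 34 lost the call and 10 changed sign, all 10 of them differences that were not called. In tc;Sf1ESCs against tcESCs the test against a 2-fold change called 594 genes in place of 1922 and 1 of the 10 genes in place of 3. In tod-PGCLCs against tcESCs it called 3078 genes in place of 4906. Leaving out 1 library gave 1119 to 2304 genes and 1 to 3 of the 10 between the ESC lines, 6568 to 7130 and 6 to 8 for SCLCs against tc;Sf1ESCs, 6508 to 7183 and 7 to 8 against tcESCs, 4420 to 5017 and 5 to 7 for tod-PGCLCs against tcESCs, and 5764 to 6646 and 7 to 8 against SCLCs. Without tcESC replicate 2 only 1 of the 10 was called between the ESC lines. Fgf5 changed sign between the ESC lines without tcESC replicate 2 (-0.146) and without tc;Sf1ESC replicate 2 (-0.225), over a range from -0.225 to 0.304 when 1 library was left out. Fgf17 changed sign in tod-PGCLCs against tcESCs with RLE size factors (-0.00673), filterByExpr (-0.00998), every gene with at least 1 count (-0.00958), the 4 libraries compared (-0.00746), DESeq2 (-0.00647), and without tcESC replicate 1 (-0.137) or tc;Sf1ESC replicate 1 (-0.0324) or 2 (-0.0330), over a range from -0.137 to 0.0852 when 1 library was left out. With the longest transcript as length Fgfr1 held 96.0% of the receptor message of tcESCs, 95.3% of that of tc;Sf1ESCs and 21.9% in SCLCs. The cause of these changes was not tested. With the replicate number as a block 1918 genes and 2 of the 10 were called between the ESC lines, where Fgf2 had an adjusted p of 0.0508, and the block changed no other call of the 10. Same-numbered libraries did not deviate together (correlations from -0.0259 to 0.0624), so the numbers were not taken to pair the samples. No value could be had for Fgfr3 between the ESC lines and Fgf17 in SCLCs against tc;Sf1ESCs in the 4 libraries compared, or for Fgf15 without tod-PGCLC replicate 2, where these genes fell under the filter. Depth limits Fgf8, Fgf9, Fgf15 and, outside tod-PGCLCs, Fgf5, which had at most 23 counts per library there.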
